A study of Homo sapiens with 18 samples.

Results

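Peaks at transfer RNA (tRNA) genes were examined in 16 immunoprecipitated ChIP-seq libraries. A distal tRNA peak was defined as a peak whose summit lay within 500 bp of 1 of 443 RefSeq tRNA genes on chromosomes 1 to 22 and X, and over 1 kb from both ends of every protein-coding gene. Summits within 500 bp of a tRNA gene but within 1 kb of a protein-coding gene end were kept as a separate near class. Of 601510 peaks in the 16 lists, 1798 were distal tRNA peaks and 629 belonged to the near class. A list held between 46 and 140 distal tRNA peaks.

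The cells were HCT116, a human colorectal carcinoma line, with the Integrator subunit INTS11 fused to an auxin-inducible degron (INTS11-AID). IAA, the auxin, marks such a fusion for destruction. All groups carried the fusion, and no untagged line was analysed here. Control and IAA were each assayed in 2 numbered libraries per antibody, against RNA polymerase II (Pol II), its C-terminal domain phosphorylated on tyrosine 1 (Tyr1P) and the same domain phosphorylated on serine 2 (Ser2P). A further 4 Pol II libraries had no replicate number, and their labels give Control, IAA, EGF and the combination IAA+EGF. Both remaining libraries were inputs. A protocol text common to all samples lists serum-free medium (14 h), IAA (500 µM, 1 h), EGF (100 ng/µl, 30 min) and interferon beta (2000 U, 1 h), without naming the libraries that received each. The labels do not say whether the cells are 1 clone or whether replicates came from separate cultures, so p-values measure only the spread between these libraries. Loss of INTS11 protein cannot be read from peak lists.

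tRNA genes are transcribed by RNA polymerase III, not by Pol II. Their promoter lies inside the gene, in an A box and a B box that are bound by TFIIIC, which then places TFIIIB just upstream of the start. Pol II is often detected next to active tRNA genes in human cells. INTS11 is the endonuclease of Integrator, which cuts nascent Pol II transcripts. Tyrosine 1 and serine 2 are positions of the heptad repeat of the Pol II C-terminal domain, and their phosphorylation marks polymerase at different stages of transcription.

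The libraries differed in depth and list length. After removal of peaks that touched an input peak, the numbered lists held 15270 to 99001 peaks, with both extremes in Ser2P (Control replicate 2 and IAA replicate 1). Depth was estimated from the deposited fold and p-values, as the lowest shared background divided by the narrowest peak width of the list. It ranged from 2.95 to 13.6 fragments per kb, and so rests on peak width as well. No tRNA gene had an input summit within 500 bp in either input, whose lists held 1579 and 1004 peaks, and no distal tRNA peak was removed for touching an input peak. The cells' labelled identity was checked on Pol II summits near gene ends: 7 of 7 colon epithelial markers had a summit within 1 kb in all 4 numbered Pol II libraries, against 0 of 6 markers of blood, endothelial and connective tissue cells. Many tRNA genes are identical or nearly identical copies. The handling of reads that match several copies is not given in the sources used here, so a peak at 1 copy could hold reads of another.

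Sequences were read for 14 tRNA genes that lay whole inside the 300-base promoter windows that RefSeq (GRCh38.p14) gives for neighbouring genes. No other tRNA sequence was read, and the 14 may not be every tRNA gene so covered. The following 7 are shown because they span the range from a peak in every numbered library to none, and because 2 pairs among them are identical copies with different peak counts. Each is printed 5′ to 3′ on the strand on which the B box was found, with the match to GTTCNANNC, the core of the B box, in capitals.
TRI-TAT2-2: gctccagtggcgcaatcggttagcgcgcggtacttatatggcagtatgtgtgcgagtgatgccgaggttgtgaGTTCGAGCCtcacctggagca
TRH-GTG1-3: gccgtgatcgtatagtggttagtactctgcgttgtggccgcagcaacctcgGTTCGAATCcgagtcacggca
TRH-GTG1-9: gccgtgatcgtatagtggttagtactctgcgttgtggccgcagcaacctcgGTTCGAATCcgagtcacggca
TRT-TGT6-1: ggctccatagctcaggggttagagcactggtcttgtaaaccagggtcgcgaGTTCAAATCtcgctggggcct
TRP-TGG3-2: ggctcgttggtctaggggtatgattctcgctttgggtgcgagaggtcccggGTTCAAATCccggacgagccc
TRP-TGG3-5: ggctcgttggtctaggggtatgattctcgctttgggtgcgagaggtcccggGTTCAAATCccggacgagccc
TRL-AAG2-2: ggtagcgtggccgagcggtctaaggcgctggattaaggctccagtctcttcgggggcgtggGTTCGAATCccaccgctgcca

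All 14 sequences held the motif, which was searched on both strands. Of 35116 promoter windows of 300 bases, 2626 (7.478%) held it. The isoleucine gene TRI-TAT2-2 (chr6:27020346-27020439, plus strand by the motif) had a distal peak in 12 of 12 numbered libraries, and the threonine gene TRT-TGT6-1 (chr5:181191687-181191758, minus strand by the motif) in 11. The leucine gene TRL-AAG2-2 (chr6:28943622-28943703) also matches the motif and had no peak in any of the 12. The histidine genes TRH-GTG1-3 (chr1:148281365-148281436) and TRH-GTG1-9 (chr15:45201151-45201222) share 72 of 72 bases. TRH-GTG1-3 had a distal peak in 11 numbered libraries, while TRH-GTG1-9, 35 bp from an end of SHF, had a near peak in 8. The proline genes TRP-TGG3-2 (chr14:20684016-20684087, 90 bp from an end of ANG) and TRP-TGG3-5 (chr16:3188094-3188165, 39 bp from an end of OR1F1) also share all 72 bases, and had near peaks in 11 and in 1 of the 12. Identical gene sequences thus carried different peak counts at different positions.

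Over the 12 numbered libraries, 240 of 443 tRNA genes had a distal peak in at least 1, and 203 had none. A near peak was found at 58 genes in at least 1 library. Together 285 genes had a peak of either kind, and 158 had none in any numbered library. A distal peak was present in all 12 at 22 genes, which formed 18 loci when genes within 1 kb of each other were joined. Of these, 19 genes also had a peak in all 4 unnumbered libraries.

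tRNA families differed in how many copies had peaks, as a description of these lists. A distal peak in at least 1 numbered library was found at 16 of 20 threonine, 10 of 13 aspartate and 21 of 33 glycine genes, but at 15 of 38 alanine and 8 of 29 cysteine genes. Glutamate genes gave 4 of the 22 genes with a peak in all 12 libraries and glycine and valine genes 3 each. By chromosome, 65 of 98 genes on chromosome 1 and 76 of 155 on chromosome 6 had a peak in at least 1 library, but 8 and 2, respectively, had one in all 12. The lowest share on a chromosome with at least 20 tRNA genes was 6 of 22, on chromosome 7. These genes are copies in clusters and are not independent of each other.

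The chromosome 1 array of glutamate, glycine, aspartate and leucine genes shows an order that recurs from repeat to repeat. TRE-CTC1-3 (chr1:161454608-161454679), TRE-CTC1-4 and TRE-CTC1-5 each had a distal peak in 12 of 12 libraries and TRE-CTC1-2 in 11. TRG-TCC2-2, TRG-TCC2-3 and TRG-TCC2-5 had a peak in 12 libraries and TRG-TCC2-4 in 11. These glutamate and glycine genes lie next to each other, so 1 summit can serve both. In the same repeats the aspartate genes TRD-GTC2-1 to TRD-GTC2-5 had a peak in 8, 5, 4, 4 and 3 libraries, and the leucine genes TRL-CAG1-1 to TRL-CAG1-5 in 0 of 12 each. The next copy, TRL-CAG1-6 (chr1:161530342-161530424), beside TRG-TCC2-6, differed from these, with a peak in 9 libraries, 4 of them Tyr1P. The repeat units are near copies of each other, and the array was singled out after its values were seen.

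Several properties of the tRNA genes were laid side by side for genes with and without distal peaks. The median distance to the nearest protein-coding gene end was 22.3 kb for the 22 genes with a peak in 12 of 12, 16.1 kb for the 218 with a peak in 1 to 11, and 21.5 kb for the 203 with none. The distal rule itself uses this distance: the 203 include genes with near peaks, and for the 158 genes with no peak of either kind the median was 37.6 kb. An end of a long non-coding RNA gene lay within 1 kb of 13.6%, 13.3% and 14.3% of the first 3 sets. Genes of at least 80 bases, a length reached by tRNA genes with an intron or a long variable arm, made up 18.2%, 18.3% and 18.2%. Another tRNA gene lay within 10 kb of 54.5%, 71.1% and 65.5%. None of these was tested, since neighbouring genes share peaks.

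Summits crowded the tRNA genes in every library. Within 500 bp of a tRNA gene, distal summits per 100 kb of sequence were 10.7 to 14.1 times as dense as at 5 to 10 kb in the numbered Pol II libraries and 11.6 to 15.0 times in Tyr1P. In Ser2P the ratio was 10.4 and 8.92 in Control but 3.52 and 4.03 in IAA. The IAA values had more summits in the surrounding sequence: the ring at 5 to 10 kb held 44 and 24 Ser2P summits in Control and 143 and 120 in IAA. The Ser2P IAA lists were also the longest, with 99001 and 88503 peaks against 37013 and 15270 in Control.

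**Figure D1:**
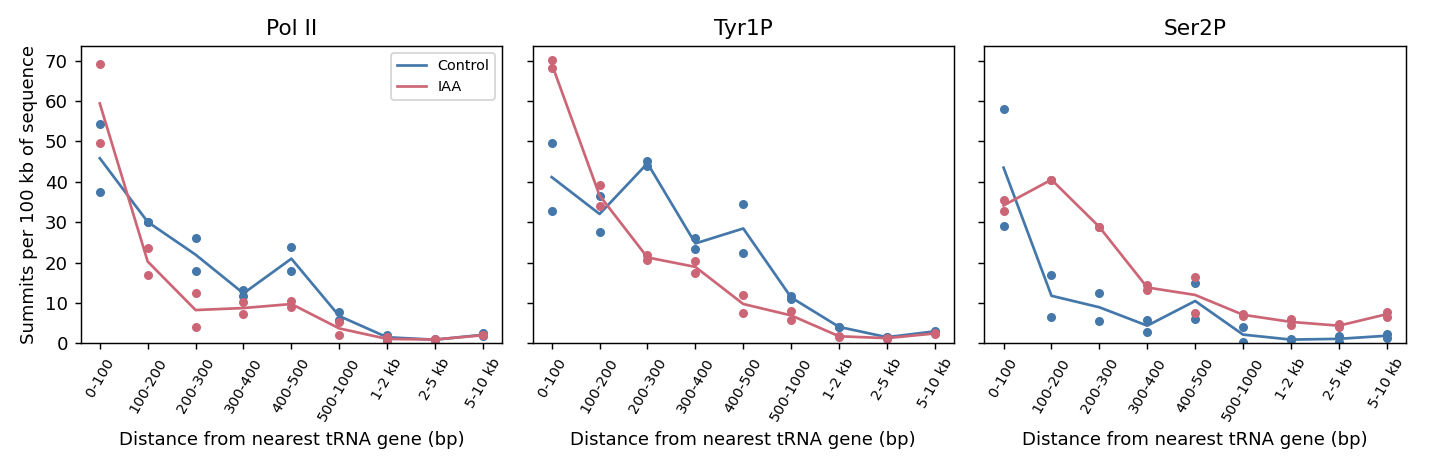
Distal summits per 100 kb of sequence (y axis) by distance from the nearest tRNA gene (x axis, bp unless marked kb), per antibody. Points are single libraries and lines join the means of 2. Control is blue and IAA red. In Tyr1P the bin at 200 to 300 bp held 45.3 and 43.9 summits per 100 kb in Control and 21.9 and 20.6 in IAA.

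The antibodies were compared by the number of tRNA genes with a distal peak in the numbered libraries. Pol II gave 106 and 128 genes in Control and 90 and 120 in IAA. Tyr1P gave 150 and 142 in Control and 148 and 151 in IAA, and Ser2P gave 108 and 53 in Control and 116 and 114 in IAA. Every Tyr1P library exceeded every numbered Pol II library and every Ser2P library. The mean was 148 ± 4.03 (SD, n = 4) for Tyr1P, 111 ± 16.7 for Pol II and 97.8 ± 30.0 for Ser2P. In a two-sided exact permutation test within treatments, Tyr1P minus Pol II was 36.8 genes with p = 0.0556, the smallest value the design allows (adjusted 0.0667 over 6 antibody comparisons). By the same exact test Ser2P minus Tyr1P was -50 genes (p = 0.0556, adjusted 0.0667) and Ser2P minus Pol II -13.2 (p = 0.611). These differences moved with list length: when lists were cut to equal length by −log10 p, Tyr1P minus Pol II became -1.25 genes and Ser2P minus Tyr1P -8.25. Without Ser2P Control replicate 2, which gave 53 genes, Ser2P minus Pol II was 0.5. In bulk chromatin, more cells with a peak and more polymerase per cell cannot be told apart.

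Between treatments the numbers of tRNA genes overlapped for Pol II and Tyr1P. IAA minus Control was -12 genes for Pol II and 3.5 for Tyr1P, with p = 0.667 for each in a two-sided exact permutation test of 2 libraries against 2, which cannot go below 0.333. For Ser2P it was 34.5 genes without overlap (exact permutation p = 0.333), which became 62 without Control replicate 1, 7 without Control replicate 2 and -1 with lists of equal length. For Pol II, lists of equal length turned the difference to 11.5 genes. For Tyr1P the difference was 25.5 genes when lists had equal length and 33.5 within a 200 bp window, each at exact permutation p = 0.333.

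As a share of all peaks, distal tRNA peaks were rarest in Ser2P. They made up 0.431% and 0.456% of the Pol II Control lists and 0.469% and 0.486% of the IAA lists. The Tyr1P shares were 0.364% and 0.358% in Control and 0.413% and 0.461% in IAA, and the Ser2P shares 0.265% and 0.301% in Control and 0.109% and 0.118% in IAA. No Ser2P library reached the lowest Pol II or Tyr1P value. The exact permutation test within treatments gave p = 0.0556 for Ser2P minus Pol II (-0.262 percentage points) and for Ser2P minus Tyr1P (-0.201). With lists of equal length these differences were -0.0573 and -0.0589. Between treatments the shares in the numbered libraries did not overlap. IAA minus Control was 0.0334 points for Pol II, 0.0765 for Tyr1P and -0.170 for Ser2P, each at the smallest exact permutation p of 0.333. With lists of equal length they were 0.0734, 0.0797 and -0.0131. The Pol II difference was 0.00174 with a 1 kb window and 0.0168 with the unnumbered Control and IAA libraries added. Those 2 libraries had shares of 0.344% (Control) and 0.328% (IAA), so with them the Pol II groups overlap.

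**Figure D2:**
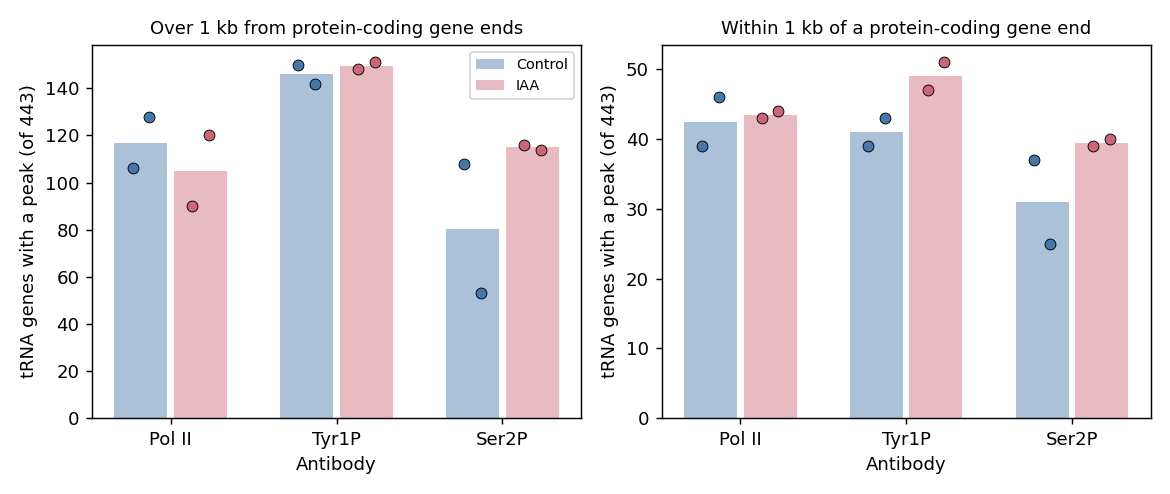
tRNA genes with a peak (y axis, number of 443) by antibody, over 1 kb from protein-coding gene ends (left) and within 1 kb of an end (right). Bars are means of 2 libraries and points the single libraries, with Control blue and IAA red. The 4 Tyr1P libraries sit between 142 and 151 distal genes, above the numbered Pol II and the Ser2P libraries shown.

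The overlap of tRNA genes between antibodies was given as a share of each list, between numbered libraries of the same number. Tyr1P peaks were found at 84.5% ± 4.59 (SD, n = 2) of the Pol II tRNA genes in Control and at 87.4% ± 2.16 in IAA. In turn Pol II peaks were found at 67.6% ± 7.95 and 61.1% ± 10.0 of the Tyr1P tRNA genes. Ser2P peaks were found at 54.1% ± 23.5 and 59.0% ± 0.196 of the Pol II genes, and Pol II peaks at 80.01% ± 14.9 and 54.0% ± 11.7 of the Ser2P genes. Ser2P peaks were found at 44.8% ± 19.6 and 55.8% ± 2.52 of the Tyr1P genes, and Tyr1P peaks at 82.3% ± 1.09 and 72.6% ± 5.20 of the Ser2P genes. For comparison, replicates of the same antibody and treatment shared 65.0% to 87.7% of each other's genes, except in Ser2P Control, where 50 shared genes were 46.3% of replicate 1 and 94.3% of replicate 2. The share of Pol II genes with a Tyr1P peak thus lay within the range between replicates, and the converse share in IAA lay below it. List size caps that converse share, since in IAA Pol II had 90 and 120 genes and Tyr1P 148 and 151.

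A peak in all 4 numbered libraries was found at 54 genes for Pol II, 88 for Tyr1P and 40 for Ser2P. Of the 54 Pol II genes, 46 were among the 88 Tyr1P genes and 24 among the 40 Ser2P genes. A peak in all 4 Tyr1P and in no numbered Pol II library occurred at 5 genes, and these were low in the lists. TRK-CTT2-5 (chr16:3175691-3175763), the highest of them, lay at percentile 40.2 of −log10 p on average, with Tyr1P summits 210 and 133 bp from the gene in Control and 127 and 132 bp in IAA. The other four were TRT-CGT1-1, TRA-TGC7-1, TRA-AGC11-1 and TRX-CAT1-3, all on chromosome 6, at percentiles from 28.6 to 35.6. The lysine gene TRK-CTT3-1 (chr16:3157405-3157477) had a peak in all 4 Ser2P and in no numbered Pol II library, at an average Ser2P percentile of 88.7. Its Ser2P summits lay 119 and 128 bp away in Control and 215 and 194 bp in IAA, and its nearest Tyr1P summits 1222 and 510 bp away in Control and 146 and 81 bp in IAA.

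Among tRNA loci with a Pol II peak in all 4 libraries, 10 stood highest by within-list rank. The aspartate gene TRD-GTC2-8 (chr12:96036021-96036092) led at percentile 94.1, with Pol II summits 466 and 471 bp away in Control and 480 and 493 bp in IAA. The authors' fold enrichment at these summits was 20.0, 17.5, 14.1 and 16.2. These summits sit close to the 500 bp limit, and the Tyr1P summits at the same gene crossed it, from 482 and 470 bp in Control to 508 and 514 bp in IAA. The serine gene TRS-AGA2-6 (chr17:8226610-8226691) followed at 89.9, with Pol II summits 57 and 63 bp away in Control and 425 and 400 bp in IAA. The leucine gene TRL-CAA1-1 (chr6:28896223-28896328) had Pol II summits 6, 18, 66 and 59 bp from the gene in Control 1, Control 2, IAA 1 and IAA 2. At both genes the IAA summits of Pol II lay farther out than the Control summits, without overlap. Tyr1P went the other way at both genes, as did Ser2P at TRS-AGA2-6, with nearer summits in IAA and no overlap.

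The next loci mostly had summits 100 to 300 bp out. The arginine gene TRR-CCG2-1 (chr17:68019897-68019969) kept its Pol II summits at 248 and 227 bp in Control and 222 and 298 bp in IAA. Its Tyr1P summits lay 219, 226, 265 and 260 bp away and its Ser2P summits 213, 231, 226 and 197 bp away, in the same order. All 12 libraries thus placed this summit within the same stretch. The histidine gene TRH-GTG1-7 (chr15:45198606-45198677) had Pol II summits at 238, 247, 216 and 262 bp. The isoleucine gene TRI-TAT2-1 (chr2:42810536-42810628) had Pol II summits 299 and 479 bp away in Control and 135 and 167 bp in IAA, and the groups do not overlap. The glutamine gene TRQ-TTG1-1 (chr17:49192528-49192599) had Pol II summits 10, 84, 0 and 56 bp away, while its Tyr1P summits lay 520 and 533 bp away in Control, just past the 500 bp limit, and 59 and 11 bp in IAA. The others of the 10 were TRT-CGT4-1, TRL-CAA6-1 and TRM-CAT6-1.

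Among the tRNA sequences read, the B box gave the strand of 5 genes with a distal peak, TRI-TAT2-2, TRH-GTG1-3, TRT-TGT6-1, TRA-AGC2-2 and TRN-GTT4-1. Their summits lay mostly upstream of the gene's 5′ end. All 7 Tyr1P summits in Control and all 7 in IAA were upstream, as were 5 and 8 Ser2P summits. Of the Pol II summits, 4 were upstream, 1 inside and 2 downstream in Control, and 7 were upstream in IAA. The 2 downstream summits belonged to TRH-GTG1-3, 153 and 59 bp past its end in Control, where the IAA libraries had summits 124 and 128 bp upstream. At TRI-TAT2-2 the Pol II summits were 169, 174, 165 and 67 bp upstream, the Tyr1P summits 147, 161, 144 and 173 bp and the Ser2P summits 147, 143, 148 and 159 bp. These genes were readable because another gene's promoter window covers them, so they may not stand for tRNA genes in general.

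In the numbered libraries with IAA, Pol II and Tyr1P summits lay nearer the tRNA genes than in Control, and Ser2P summits lay farther. The median distance from a tRNA gene to its nearest distal Pol II summit was 154.5 and 127 bp in Control and 68.5 and 76.5 bp in IAA. For Tyr1P it was 198.5 and 223.5 bp in Control and 103.5 and 103 bp in IAA. For Ser2P it was 81.5 and 86 bp in Control and 168.5 and 158 bp in IAA. These groups of 2 do not overlap for any antibody, and the direction in Ser2P is opposite to that in the other two. The unnumbered Pol II library labelled IAA had a median of 195 bp, longer than in both numbered Control libraries, so with it included the Pol II groups overlap and the difference is -53.2 bp. IAA minus Control was -68.2 bp for Pol II (141 ± 19.4 to 72.5 ± 5.66, SD, n = 2), -108 bp for Tyr1P (211 ± 17.7 to 103 ± 0.354) and 79.5 bp for Ser2P (83.8 ± 3.18 to 163 ± 7.42). Each gave the smallest p of the exact permutation test, 0.333 (adjusted 0.556 over 15 tests of IAA against Control). The sign held under each alternative tried, except for Ser2P at genes matched on Control distance, described below. Its size depended on the peaks counted. Within a 200 bp window, which caps every distance and changes the genes, the Pol II and Tyr1P differences were -1.75 and -4.25 bp. For peaks that overlap the tRNA gene itself they were -6.5 and -98 bp.

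**Figure D3:**
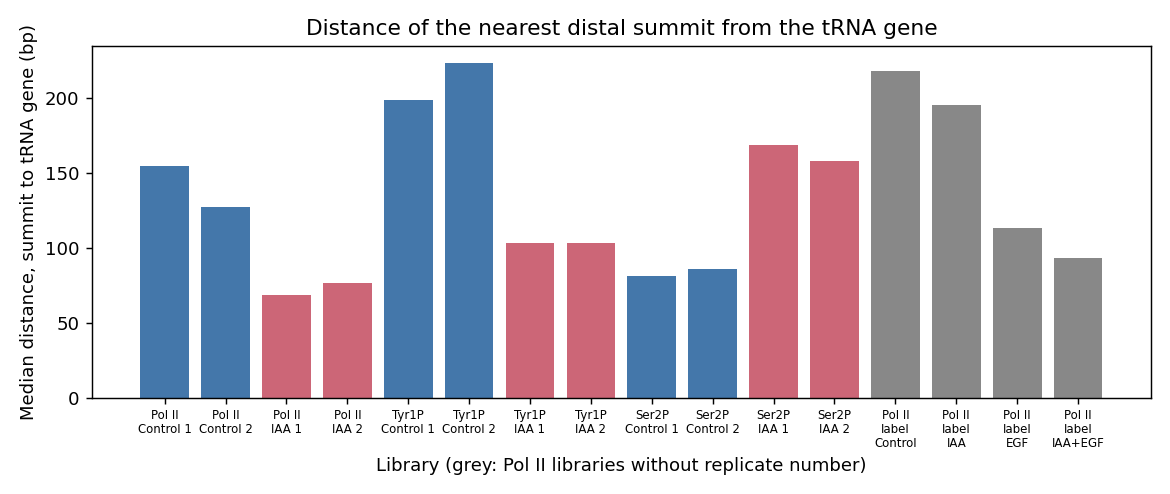
Median distance in bp (y axis) from a tRNA gene to its nearest distal summit, 1 bar per library (x axis). Control libraries are blue, IAA libraries red and the 4 Pol II libraries without a replicate number grey. The Tyr1P bars are 198.5 and 223.5 bp in Control and 103.5 and 103 bp in IAA, and the Ser2P bars go the other way, from 81.5 and 86 to 168.5 and 158 bp.

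The share of tRNA genes whose summit lay within 100 bp shows the same shift. It was 37.7% and 45.3% for Pol II in Control and 58.9% and 61.7% in IAA. For Tyr1P it was 35.3% and 24.6% against 49.3% and 49.7%, and for Ser2P 57.4% and 58.5% against 30.2% and 33.3%. Again no group overlaps its counterpart. Peak width moved less: the median width of tRNA peaks was 365 and 304.5 bp for Pol II in Control and 290 and 367.5 bp in IAA. For Tyr1P it was 521.5 and 547.5 bp against 448 bp in both IAA libraries, and for Ser2P 439 and 448 bp against 463 and 556 bp.

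Distances were then read gene by gene, at genes with a peak in all 4 libraries of an antibody. A gene was called closer when both IAA distances were below both Control distances, and farther in the reverse case. For Pol II, 12 of 54 tRNA genes were closer and 11 farther. That is 22.2% and 20.4%, where ends of protein-coding genes gave 8.03% closer and 59.7% farther. The Pol II counts at tRNA genes were thus nearly equal and did not repeat the nearer shift of the Pol II medians. The medians of these same 54 genes did shift nearer, from 171 and 127.5 bp in Control to 81 and 99 bp in IAA. For Tyr1P, 38 of 88 (43.2%) were closer and 15 (17.0%) farther, against 9.49% and 57.4% at protein-coding ends. For Ser2P, 7 of 40 (17.5%) were closer and 16 (40%) farther, against 17.6% and 25.2%. The tRNA genes thus leaned less to the farther side than protein-coding ends for Pol II and Tyr1P, and more so for Ser2P, without a test of the difference. At protein-coding ends the medians ran from 85 and 83 bp in Control to 131 and 135 bp in IAA for Pol II, and from 83 and 82 to 119 and 126 bp for Tyr1P. Control distances were thus longer at tRNA genes, where these genes had medians of 171 and 127.5 bp for Pol II and 217.5 and 214.5 bp for Tyr1P. Distances were taken to the whole tRNA gene but to the ends of a protein-coding gene.

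Genes with a mean Control distance of 100 to 300 bp were therefore compared on their own, an alternative chosen after the data were seen. For Tyr1P, 20 of 43 tRNA genes were closer (46.5%) and 6 farther (14.0%), where 14.1% of 3416 protein-coding genes were closer and 44% farther. For Pol II, 5 of 17 were closer and 4 farther, against 12.6% and 42.2%. For Ser2P, 2 of 12 were closer and 3 farther, against 24.4% and 15.6%. Median distances at these Ser2P genes were 192 bp in Control and 162.5 bp in IAA, opposite in direction to the Ser2P medians above. For Pol II they were 221 and 116 bp, and for Tyr1P 217 and 154 bp. The Tyr1P share was as high as over all distances, and the Pol II and Ser2P counts are small.

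**Figure D4:**
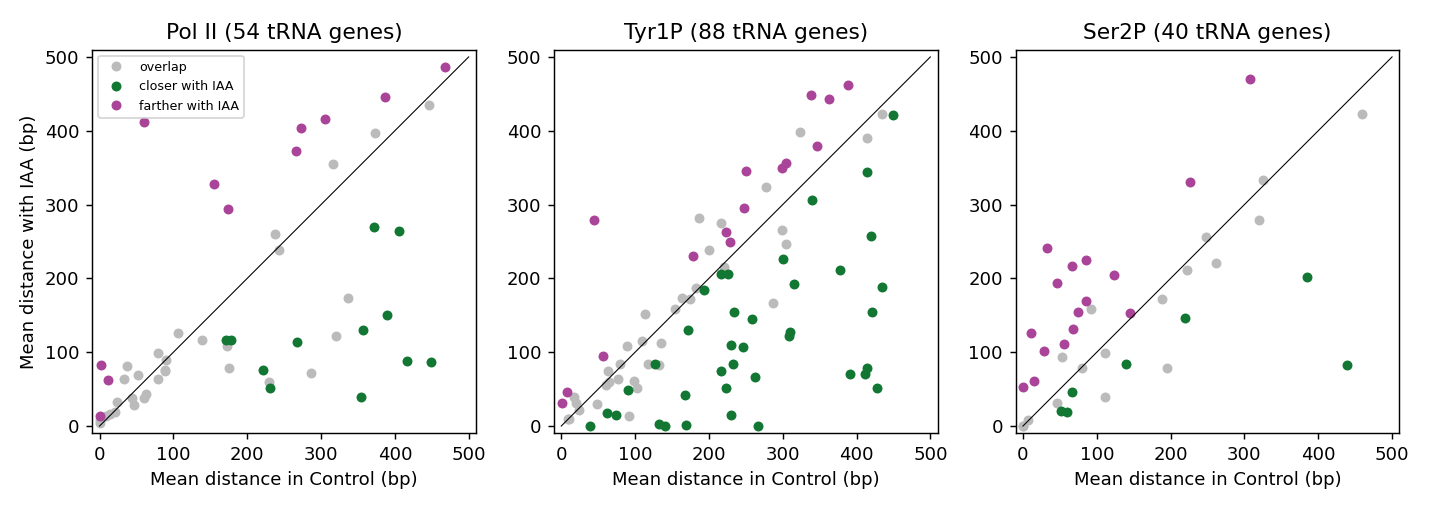
Each point is a tRNA gene with a distal peak in all 4 numbered libraries of an antibody: mean summit distance in Control (x axis, bp) against mean distance in IAA (y axis, bp). Green genes are closer and purple genes farther with IAA without overlap, grey genes overlap, and the line marks equal distance. For Tyr1P 38 of 88 genes are green and 15 purple.

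At the valine gene TRV-CAC1-1 (chr1:161399700-161399772) the Pol II summits were 417 and 415 bp away in Control and 117 and 60 bp in IAA, and the Tyr1P summits 439 and 416 bp in Control and 65 and 39 bp in IAA. The Ser2P summits there were 2 and 21 bp away in Control and 176 and 77 bp in IAA. This gene thus repeats at 1 place the opposite directions of the medians. At the proline gene TRP-CGG1-1 (chr1:167714725-167714796) the Pol II summits lay at 466 and 432 bp in Control and 77 and 96 bp in IAA, and the Tyr1P summits at 422 and 419 bp against 187 and 122 bp. Of the 12 genes closer for Pol II, 8 were also closer for Tyr1P, which is 66.7% of the Pol II and 21.1% of the Tyr1P genes. TRV-CAC1-1 and TRP-CGG1-1 were chosen for display after their values were seen.

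Peaks also appeared and disappeared. A tRNA gene counted as gained when both IAA libraries had a distal peak there and both Control libraries had none, and as lost when only both Control libraries had one. For Pol II, 14 of the 178 tRNA genes with a peak in at least 1 of the 4 libraries were gained (7.87%) and 19 lost (10.7%), against 1.17% and 6.33% at ends of protein-coding genes. For Tyr1P, 23 of 215 were gained (10.7%) and 20 lost (9.30%), against 1.44% and 3.11%. For Ser2P, 23 of 153 were gained (15.0%) and 4 lost (2.61%), against 9.75% and 0.79%. All 6 shares were above those at protein-coding ends. The rules differ, since a tRNA call needed a summit over 1 kb from protein-coding ends. For a protein-coding gene any summit within 500 bp of either end counted. Of the lost tRNA genes, 2 in Pol II and 3 in Tyr1P had a near-class summit within 500 bp in at least 1 IAA library. In the numbered libraries the median tRNA peak lay at percentile 31.8 to 41.1 of its list by −log10 p in Pol II. The range was 48.8 to 57.4 in Tyr1P and 66.9 to 83.0 in Ser2P. The part of peak strength in the gained and lost shares was not tested.

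**Figure D5:**
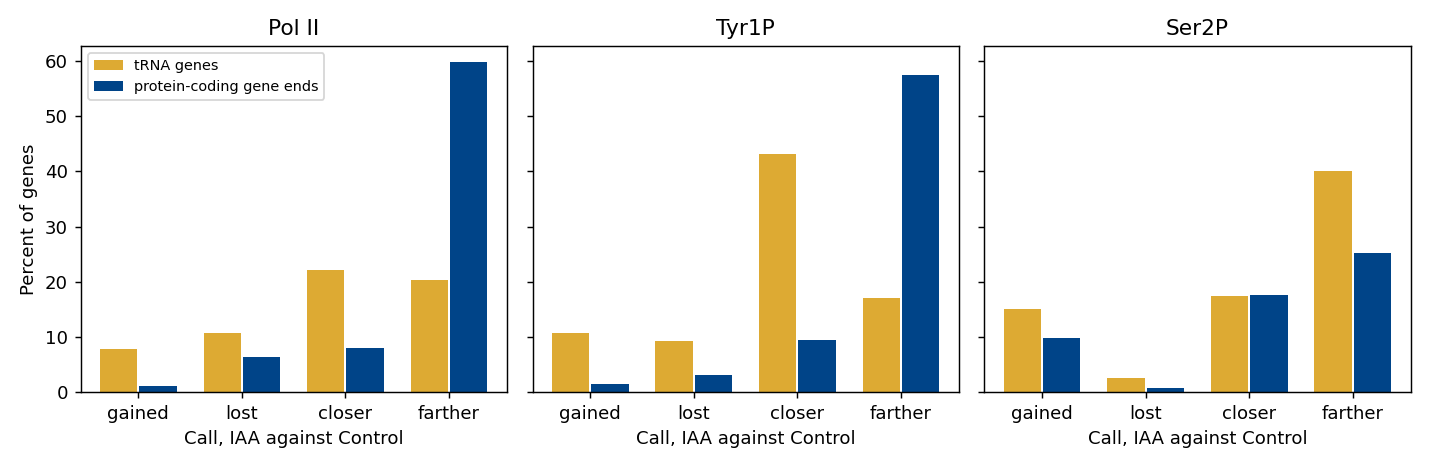
Percent of genes (y axis) called gained, lost, closer or farther with IAA (x axis) for each antibody, at tRNA genes (yellow) and at ends of protein-coding genes (dark blue). Gained and lost are shares of genes with a peak in at least 1 of 4 libraries, closer and farther of genes with a peak in all 4. For Tyr1P 43.2% of tRNA genes are closer, against 9.49% at protein-coding ends.

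Gained Pol II and Tyr1P peaks often had a Control summit nearby. Of 14 gained Pol II genes, 5 had their nearest Control summit 500 bp to 1 kb away, 4 at 1 to 2 kb and 5 farther off. Of 23 gained Tyr1P genes these counts were 10, 5 and 8, whereas 18 of 23 gained Ser2P genes had no Control summit within 2 kb. The valine gene TRV-AAC1-1 (chr3:169772230-169772302) ranked highest among the Pol II gains: its nearest Pol II summit was 978 and 974 bp away in Control and 3 and 0 bp in IAA, where the authors' fold enrichment was 7.54 and 6.76. Its Tyr1P summits were 987 and 980 bp away in Control and 0 and 7 bp in IAA. The cysteine gene TRC-GCA2-2 (chr17:38867645-38867716) had Pol II summits 2368 and 2372 bp away in Control and 0 and 42 bp in IAA, and Tyr1P summits at 2374, 2378, 0 and 57 bp. At both genes neither antibody had a summit within 500 bp in Control, and Ser2P had no distal peak in any library.

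The gains of the 2 antibodies overlapped in part. The 6 genes gained in both were TRV-AAC1-1, TRC-GCA2-2, TRA-TGC3-2, TRD-GTC2-9, TRX-CAT1-7 and TRY-GTA6-1, which are 42.9% of the Pol II and 26.1% of the Tyr1P gains. The tyrosine gene TRY-GTA6-1 (chr6:26594874-26594962) had Pol II summits 1788 bp away in both Control libraries and 62 and 117 bp in IAA. The aspartate gene TRD-GTC2-9 (chr12:124927345-124927416) had Tyr1P summits 1114 and 1079 bp away in Control and 29 and 17 bp in IAA. TRA-TGC3-2 (chr12:124921755-124921826), an alanine gene of the same region, had Tyr1P summits 2220 and 2270 bp away in Control and 85 and 12 bp in IAA. The initiator methionine gene TRX-CAT1-7 (chr6:27902493-27902564) moved less: its Tyr1P summits were 609 and 553 bp away in Control and 424 and 99 bp in IAA, and its Pol II summits 9361, 690, 459 and 53 bp. When Control and IAA were each joined by their unnumbered library, there was 1 Pol II gain and 1 loss. The deposited name of that IAA library gives another treatment, so these counts carry that doubt.

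Lost Pol II genes mostly had no summit left nearby. Of 19, 15 had their nearest IAA summit over 2 kb away, and 10 lay on chromosome 1. That chromosome held 65 of the 240 tRNA genes with a distal peak in at least 1 numbered library, and the difference was not tested. The valine gene TRV-TAC3-1 (chr10:5853711-5853783) had Pol II summits 0 and 35 bp away in Control and 35414 and 35389 bp in IAA. It was lost in Tyr1P as well, with 17 and 23 bp in Control against 6676 and 6328 bp, while Ser2P kept summits 99 and 70 bp away in IAA. The isoleucine gene TRI-AAT4-1 (chr17:8226991-8227064), the highest-ranked loss, had Pol II summits at 243 and 237 bp in Control and at 806 and 781 bp in IAA. It lies beside TRS-AGA2-6, and these are the same summits as described there. The Control summits lay between these neighbouring genes and the IAA summits on the far side of TRS-AGA2-6. This loss and the greater distance at TRS-AGA2-6 thus rest on the same summits. The threonine gene TRT-AGT1-3 (chr19:33177057-33177130) kept summits at 315 and 258 bp in IAA that fell in the near class. The asparagine genes TRN-GTT2-1 (chr1:148529257-148529330), TRN-GTT7-1 and TRN-GTT24-1, among the lost Pol II genes, kept Tyr1P and Ser2P peaks in all 4 libraries of each antibody.

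For Ser2P, the highest-ranked gain was the glutamine gene TRQ-CTG7-1 (chr1:148328812-148328883), with summits 5824 and 5763 bp away in Control and 292 and 290 bp in IAA. TRP-CGG1-3 (chr17:8222833-8222904) followed, with 4225 and 4227 bp in Control and 116 and 104 bp in IAA. The 4 lost genes were TRA-AGC8-1, TRN-GTT2-2, TRV-CAC8-1 and the selenocysteine gene TRU-TCA1-1 (chr19:45478601-45478687), whose Ser2P summits were 431 and 0 bp away in Control and 6874 and 7009 bp in IAA. TRN-GTT2-2 (chr1:161428077-161428150) lost its Ser2P summits at 59 and 55 bp and kept Pol II and Tyr1P peaks in all 8 libraries. The Ser2P counts depended on 1 library: 57 genes were gained when the short list of Control replicate 2 stood alone as Control, and 23 were lost when Control replicate 1 stood alone. With lists of equal length 10 were gained and 9 lost.

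Peak height was compared as estimated fragments at the summit over the library's genome-wide background. The median over tRNA peaks was 26.8 and 19.4 times background for Pol II in Control and 21.2 and 22.5 in IAA. It was 22.8, 20.5, 24.4 and 21.2 for Tyr1P and 14.0, 29.7, 27.1 and 24.3 for Ser2P in the same order. These groups overlap for Pol II, Tyr1P and Ser2P, with exact permutation p of 1, 0.667 and 1. At genes with a peak in all 4 libraries the median log2 ratio of IAA over Control was -0.57 for Pol II, -0.25 for Tyr1P and 1.17 for Ser2P, where protein-coding ends gave -0.79, -0.83 and 0.92. For Pol II, 30 of 54 tRNA genes were lower without overlap and 7 higher, against 69.3% and 5.63% of protein-coding ends. For Tyr1P, 44 of 88 were lower and 21 higher, against 88.9% and 2.62%. For Ser2P, 30 of 40 were higher and 7 lower, against 87% and 1.89%. Most protein-coding ends thus moved in the same direction as the tRNA genes.

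In the numbered libraries, tRNA peaks ranked higher within their lists in IAA. Their median percentile of −log10 p was 31.8 and 37.7 for Pol II in Control and 41.1 and 40.5 in IAA. It was 49.4, 48.8, 57.4 and 53.6 for Tyr1P and 69.1, 66.9, 80.8 and 83.0 for Ser2P. No group of numbered libraries overlaps, and the lists differ in length, so these ranks describe each list and not a change in signal. The unnumbered Pol II libraries labelled Control and IAA stood at 50.1 and 46.7, so this pair went the other way. In Ser2P tRNA peaks stood among the stronger peaks of the list, and in the numbered Pol II lists among the weaker.

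In the near class, counts differed little between treatments for Pol II, with 39 and 46 genes in Control and 43 and 44 in IAA. Tyr1P gave 39 and 43 against 47 and 51, and Ser2P 37 and 25 against 39 and 40. The differences of 8 (Tyr1P) and 8.5 (Ser2P) genes do not overlap between groups, with p = 0.333 in the exact permutation test. Median distances repeated the distal pattern for Pol II (153 and 130.5 bp in Control, 80 and 67.5 bp in IAA) and Tyr1P (196 and 264 bp, 83 and 101 bp). For Ser2P they were 124 and 163 bp in Control and 188 and 168 bp in IAA.

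A near peak in all 12 numbered libraries was found at 13 genes. The arginine gene TRR-TCG1-1 (chr15:89335073-89335145), 249 bp from an end of POLG, the mitochondrial DNA polymerase, ranked highest, with Pol II summits 311, 305, 294 and 357 bp away. The glutamine gene TRQ-CTG1-4 (chr15:65869062-65869133), 358 bp from an end of RAB11A, a GTPase of recycling endosomes, had Pol II summits 164 and 118 bp away in Control and 88 and 89 bp in IAA. Next to SACM1L, a phosphoinositide phosphatase, TRR-ACG2-1 (chr3:45688999-45689071) had Tyr1P summits 410, 399, 471 and 453 bp away. TRR-ACG1-3 lay 325 bp from an end of PRMT5, an arginine methyltransferase, and TRN-GTT2-6 271 bp from an end of NDUFS7, a subunit of respiratory complex I. A summit here can belong to the protein-coding promoter, and its source cannot be told apart from these lists.

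The 4 Pol II libraries without a replicate number have 1 library per label, and no test was made among them. For the libraries labelled IAA and EGF, the labels and the deposited names disagree, and the labels are followed here. A distal peak was found at 133 tRNA genes in Control, 117 in IAA, 143 in EGF and 127 in IAA+EGF, or at 113, 104, 143 and 124 when lists were cut to 27701 peaks. Median distances were 218 bp in Control, 195 bp in IAA, 113 bp in EGF and 93 bp in IAA+EGF. The Control value was longer than in either numbered Control library, and the IAA value longer than in any numbered Pol II library of either treatment. Of the 14 genes gained in the numbered libraries, 2 had a peak in the library labelled Control, 2 in IAA, 6 in EGF and 7 in IAA+EGF. Of the 19 lost, 13, 13, 12 and 9 had a peak in these libraries.

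Other genes transcribed by RNA polymerase III were read for position as well. For them any summit within 500 bp counted, whatever its distance from protein-coding gene ends, so the rule differs from that of the distal tRNA calls. Of 20 such genes (the 7SK, signal recognition particle, RNase P, RNase MRP, U6, U6atac, vault, Y and BC200 RNA genes), 10 had a Pol II summit within 500 bp in all 4 libraries, 15 a Tyr1P summit and 4 a Ser2P summit. For Pol II, 1 of 10 was closer and 5 farther with IAA, and for Tyr1P 3 and 6 of 15, where 8.03% and 59.7% (Pol II) and 9.49% and 57.4% (Tyr1P) of all protein-coding genes were so called. RPPH1, the RNA of RNase P, had Pol II summits 0 bp away in both Control libraries and 453 and 461 bp in IAA, and was chosen after its values were seen. Genes of the RNA polymerase III subunits and factors, which Pol II transcribes, had a Pol II summit in all 4 libraries at 22 of 30. With IAA, 3 of these 22 were closer and 12 farther for Pol II, and 4 and 12 of 26 for Tyr1P, beside those same shares over all protein-coding genes.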

How the data were processed

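Peaks came from MACS2 2.2.7.1 on build hg38 per the submitters' processing notes, which also name Bowtie2 2.3.4.1, Trim Galore 0.6.6, deepTools 3.5.1 and Picard 2.25.7. Options of these tools were not given in the sources used here. Each library has its own list, in which the authors deposited per peak the fold enrichment (a ratio), the −log10 of p and of q, a score, and the summit. The lowest deposited −log10 q was 1.31. The files hold no read totals, so fragments at a summit and the local background were solved from the deposited fold and p, with 1 added to both terms of the ratio and a Poisson tail; 99.9% to 100% of peaks were solved within a relative tolerance of 0.0002. Background was taken where at least 5 peaks shared the lowest value. Peaks sharing 1 bp or more with an input peak (0.276% to 2.31% of a list) were removed. Gene positions came from RefSeq on GRCh38.p14, which gives no strand for tRNA genes; the table holds 19974 protein-coding genes on these chromosomes.

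Each library's value was compared by two-sided exact permutation tests, within treatments for antibodies, with Benjamini-Hochberg adjustment. Calls at single genes were set beside the same calls at ends of protein-coding genes. Intervals and ranks cover these lists only, and the estimates of depth limit what weak peaks can show. Named tRNA genes were the 10 highest-ranked loci with a Pol II peak in all 4 libraries, up to 6 gained and 6 lost per antibody, up to 6 in all 4 Tyr1P or Ser2P and no Pol II library, and up to 6 of the near class in all 12; others are said to be chosen after their values were seen, or are members of groups or sequences shown. The members and lists were chosen with earlier results of these data known. For the marker lists, Tyr1P gave 7 of 7 colon epithelial and 0 of 6 other markers in all 4 libraries, and Ser2P 6 and 1. For the other RNA polymerase III genes in Ser2P, 1 was closer and 2 farther; for the subunits and factors, Tyr1P had a summit in all 4 libraries at 26 and Ser2P at 16. The calculations were tested on simulated data, and used Python 3.11.15, numpy 2.4.6, pandas 2.3.3 and scipy 1.17.1.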

Additional observations from a re-analysis of the deposited data

Results flagged for a closer look

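The difference between IAA and Control went in opposite directions for Ser2P and for the other two antibodies in 2 measures, and the comparison of these differences was chosen after the values were seen. For the share of peaks at tRNA genes, the IAA minus Control difference of Ser2P minus that of Pol II was -0.203 percentage points, and minus that of Tyr1P it was -0.246. The IAA minus Control difference in median summit distance was 147.75 bp greater for Ser2P than for Pol II and 187.25 bp greater than for Tyr1P. Each gave p = 0.0556 in an exact permutation test of the difference over 36 arrangements, the smallest value possible.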

How the results depend on the processing

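Except at Ser2P genes matched on Control distance, the sign of the difference in median distance held under every alternative tried, though not the size. The sign of the difference in the share of peaks held under every alternative tried for each antibody, though not the size. At the matched Ser2P genes the median distances were 192 bp in Control and 162.5 bp in IAA. Leaving out 1 library at a time, the difference in median distance ranged from -82 to -54.5 bp for Pol II, -120.25 to -95.25 bp for Tyr1P and 74.25 to 84.75 bp for Ser2P. Counts of tRNA genes did not hold in this way. For Pol II, IAA minus Control was 7 with a 200 bp window, 11.5 with lists of equal length and 5 for peaks overlapping the gene, and -27 to 3 leaving out 1 library. For Tyr1P it was -9.5 with a 1 kb window and -0.5 to 7.5 leaving out 1 library, and for Ser2P -1 with equal lists and 7 to 62 leaving out 1 library. In the near class, Pol II gave -1 with a 1 kb window, -1.5 with gene ends of 2 kb, 0 at −log10 q of at least 5, and -2.5 to 4.5 leaving out 1 library, and Ser2P -0.5 with equal lists. Median height over background gave 0.165 for Pol II with the unnumbered libraries added and -4.93 to 2.50 leaving out 1 library. For Tyr1P it gave -0.43 with a 1 kb window, -3.62 with equal lists and -0.478 to 2.74 leaving out 1 library (-0.0297 without Control replicate 2), and for Ser2P -0.558 with gene ends of 2 kb and -3.96 to 11.7 leaving out 1 library.

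Leaving out 1 library, gained genes ranged from 17 to 29 for Pol II, 28 to 36 for Tyr1P and 26 to 57 for Ser2P, and lost genes from 21 to 39, 26 to 35 and 4 to 23, since a call then rests on fewer libraries. With the unnumbered libraries added, Pol II had 1 gained and 1 lost. Tyr1P lost 6 with a 200 bp window and 10 with equal lists. Ser2P gained 14 with a 200 bp window and 10 with equal lists, and lost 9 with equal lists. Between antibodies, Tyr1P minus Pol II was -1.25 genes with equal lists, and Ser2P minus Pol II 2 at −log10 q of at least 5 and -27 to 0.5 leaving out 1 library. Without treatment strata the exact permutation p was 0.0286 for Tyr1P minus Pol II genes (36.8), Ser2P minus Tyr1P genes (-50) and the Ser2P shares (-0.262 against Pol II, -0.201 against Tyr1P). The cause of these changes was not tested.

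Replicate numbers were shared by Control and IAA. Deviations of same-numbered libraries correlated at -0.14 for Pol II, 0.10 for Tyr1P and 0.04 for Ser2P. With 2 libraries per group these values cannot exclude a shared culture or batch, and the labels do not name one. With the replicate block the differences in median distance stayed -68.25, -107.75 and 79.5 bp, with exact permutation p = 0.5, the smallest that 2 pairs allow. The crossed pairing, added for Pol II after seeing the data, gave the same value and p. Leaving out summits near lncRNA ends, comparing only genes with a peak in all 4 libraries, and matching on Control distance were also chosen after seeing the data; with the first, the differences in median distance were -62.5, -112 and 76.5 bp, and with the second -59.25, -92.75 and 36 bp. Depth, at 2.95 to 13.6 fragments per kb, limits which weak peaks each list could hold.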
